A study of Mus musculus with 6 samples.

Results

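The oligoadenylate synthetase (Oas) genes described here are Oas1a, Oas1b, Oas1c, Oas1g, Oas2, Oas3, Oasl1 and Oasl2, taken by gene symbol from the deposited count table, where they are 8 of 43629 named genes. The study sequenced RNA from hearts of male C57BL/6 mice on normal chow at 22 months of age (old, n = 3) and at 2 months of age (young, n = 3), and described the 3 samples of each age as independent biological replicates. All animals shared strain, sex, diet and housing, so age was the only labelled difference, and no intermediate age was sampled. The extraction text of the labels names NRVMs, an abbreviation it does not spell out, while the tissue label of all 6 samples is heart.

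Oligoadenylate synthetases are cytosolic sensors of double-stranded RNA. On binding it they join ATP into oligoadenylates with 2′-5′ linkages, second messengers that lead to the cutting of viral and cellular RNA. Type I and type III interferons raise their transcription through a complex that holds STAT2 and IRF9 and binds an interferon-response motif of repeated GAAA blocks. Mice carry a cluster of Oas1 copies where humans have one OAS1 gene, and most of these copies are thought to have no synthetase activity.

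All 8 genes lie on chromosome 5 (GRCm38; gene bounds from GENCODE M21). Oasl2 (chr5:114896936-114912234) and Oasl1 (chr5:114923240-114937915) neighbour each other on the plus strand. The other 6 lie in a second cluster, with Oas2 (chr5:120730333-120749853), Oas3 (chr5:120753098-120777661), Oas1c (chr5:120800194-120812514), Oas1g (chr5:120876142-120887613) and Oas1a (chr5:120896256-120907521) on the minus strand. Oas1b (chr5:120812635-120824163) runs the other way on the plus strand, and 120 bases separate its end of the locus from that of Oas1c.

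Start-site windows, from 250 bases before to 50 bases after an annotated start, came from RefSeq (GRCm38.p6) and matched 6 of the 8 genes by symbol; Oas1b and Oas2 are named only. The interferon-response motif was searched on both strands as GAAANNGAAA and as the longer GAAANNGAAANNGAAA, 1 match of which holds 2 overlapping matches of the shorter form. GAAANNGAAA was present in the windows of 4 of the 6 genes, Oas1a, Oas1g, Oas1c and Oas3. Among mouse windows of the same length it occurred in 3.44% of 32851 windows, and for 3.99% of their 27025 genes. The longer form was present for Oas1a, Oas1g and Oas1c, and in 0.116% of all windows (0.133% of genes with a window). These 60-base stretches are shown because they hold every match, with the matched bases in capitals, 5′ to 3′; the Oas1c stretch is written on the plus strand, opposite to Oas1c and in the direction of Oas1b.
Oas1a, chr5:120907506-120907565, minus strand: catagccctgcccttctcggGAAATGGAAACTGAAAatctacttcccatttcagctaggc
Oas1g, chr5:120887592-120887651, minus strand: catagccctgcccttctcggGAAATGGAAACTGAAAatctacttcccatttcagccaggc
Oas1c, chr5:120812593-120812652, plus strand: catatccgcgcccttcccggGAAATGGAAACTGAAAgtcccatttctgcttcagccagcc
Oas3, chr5:120777695-120777754, minus strand: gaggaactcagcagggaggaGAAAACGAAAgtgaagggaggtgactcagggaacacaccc

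The Oas1a and Oas1g stretches were identical at 59 of 60 bases, and the Oas1c stretch matched them at 46 and 47 of 60. The match lay 5 to 20 bases before the annotated start in Oas1a and 3 to 18 bases before it in Oas1g. In Oas1c it lay 99 to 114 bases before the Oas1c start, and the same bases lie 7 to 22 bases before the GENCODE start of Oas1b on the strand of Oas1b. The single shorter match of Oas3 lay 66 to 75 bases before its start. The letters of neither form occurred in the windows of Oasl1 and Oasl2. The interferon-gamma activation motif TTCNNNGAA reads the same way on both strands. A match occurred in the Oas1a window alone among the 6, 90 to 98 bases before the start. That motif was present in 8.3% of all windows and for 9.55% of genes with a window. A match is a run of letters, not a measured binding site.

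**Figure D1:**
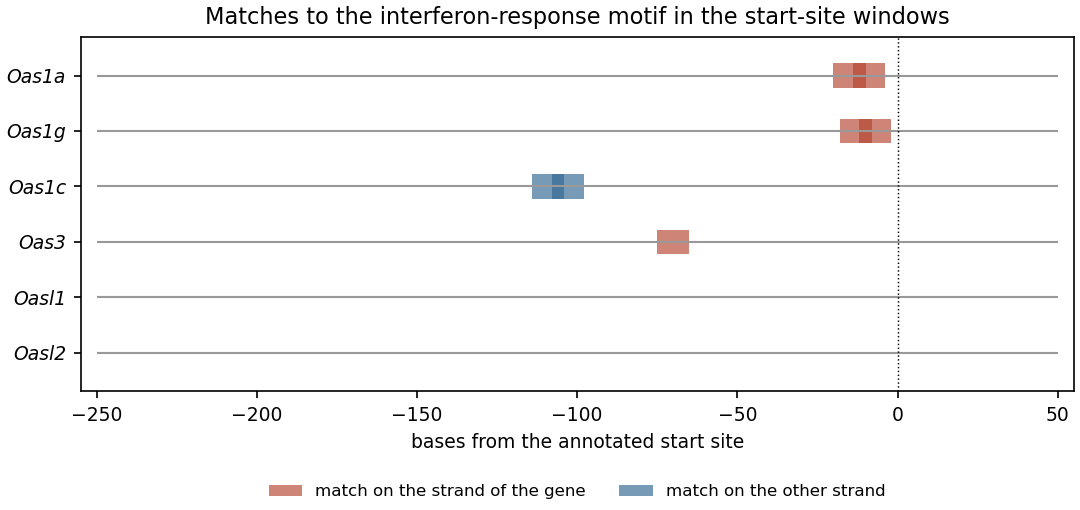
Position of each GAAANNGAAA match in the start-site windows of the 6 Oas genes with a RefSeq window; the x axis gives bases from the annotated start (dotted line), and boxes mark matches by strand, darker where 2 overlap. Oas1a and Oas1g hold their matches within 20 bases of the start, Oas1c and Oas3 farther upstream, and Oasl1 and Oasl2 hold none.

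The deposited counts summed to 13673856 to 15583364 per library. Log2 CPM (counts scaled to library size) correlated at 0.958 to 0.978 among old libraries and 0.985 to 0.988 among young libraries, and old heart 3 was the highest old library for all 8 Oas genes, so values without it are given below. Cardiomyocyte markers were present at 40202 to 45563 CPM in old hearts and 54743 to 60521 CPM in young hearts (7 genes summed). Changes were tested with edgeR's quasi-likelihood test over 14413 genes, with Benjamini-Hochberg adjustment over all of them and a threshold of 0.05; CPM values are scaled by edgeR's TMM factors.

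The Oas genes were higher in old hearts: 7 of the 8 passed the test as higher and none as lower, and their median log2 fold change was 2.56. With 1 library left out, 5 (without young heart 1 or 2) to 8 (without old heart 1) passed as higher. Across all genes tested, 8.72% passed as higher and 6.36% as lower, and the median log2 fold change was 0.02; the calls in either direction, 2174 with all libraries, were 539 to 5570 with 1 library left out. Oas1c was the exception, with an adjusted p of 0.0662. Oas3, 1 of the 7, passed the filter on low counts through the old hearts alone. For all 8 genes the 3 old libraries lay above the 3 young ones, as they did for 18.8% of all genes tested. In whole-heart RNA, more cells of a type and more RNA per cell cannot be told apart.

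**Figure D2:**
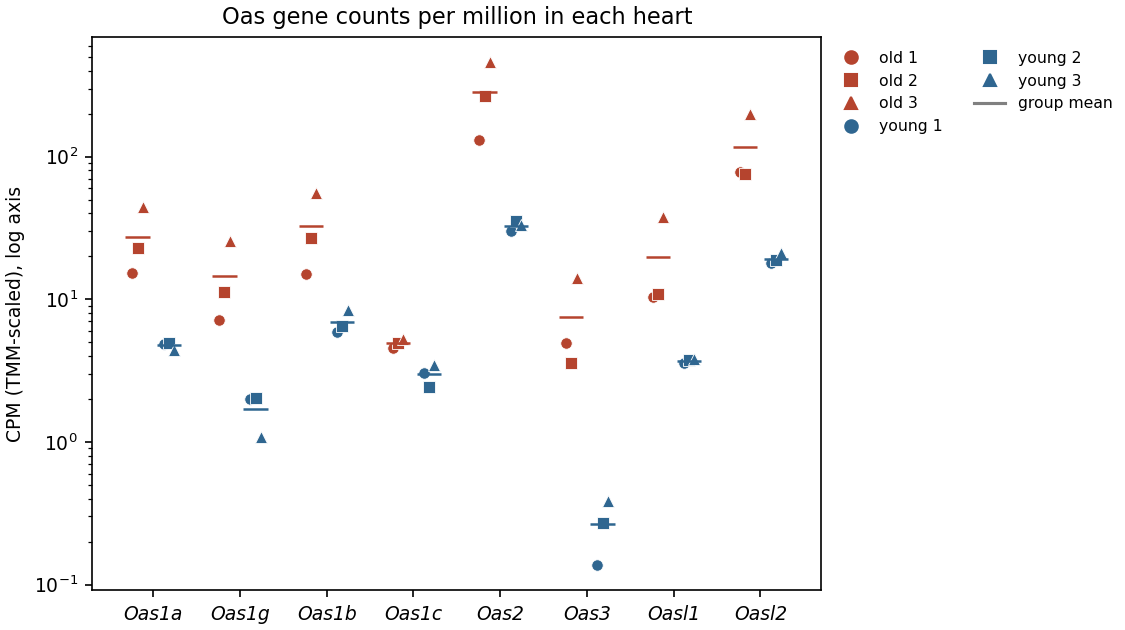
CPM of the 8 Oas genes (log axis) in each of the 3 old (red) and 3 young (blue) hearts; symbols mark the libraries and lines the group means. Old and young hearts do not overlap for any of the 8 genes, and the old 3 heart (red triangle) is highest throughout.

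Oas1a and Oas1g are the Oas1 copies of the mouse cluster that make 2′-5′ oligoadenylates. Oas1a had 15.3, 22.7 and 44.3 CPM in old hearts, against 4.88, 4.95 and 4.44 CPM in young hearts. Old hearts spread over a 2.9-fold range, while the young ones lay close together. The mean was 27.4 ± 15.1 CPM in old hearts and 4.76 ± 0.276 CPM in young hearts (SD, n = 3 each), a log2 fold change of 2.52 ± 0.36 (SE; edgeR adjusted p = 0.00353). Oas1g had 7.17, 11.2 and 25.6 CPM in old hearts, against 1.99, 2.04 and 1.09 CPM in young hearts. The order of the old hearts was the same as for Oas1a. The log2 fold change of Oas1g was 3.10 ± 0.48 (edgeR adjusted p = 0.00502).

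Oas1a and Oas1g are near-identical in part, and reads could be split or lost between them. Of all 100-base words of the annotated exons, 40.9% of those of Oas1a occur in Oas1g and 31.2% of those of Oas1g occur in Oas1a, so the share each gene holds of their reads is uncertain. Counts summed over all 8 copies from Oas1a to Oas1h do not depend on that split. Reads lost as ambiguous would be missing from the sum too, and the sum also holds copies outside the pair, such as Oas1b. The sum was 42.5, 65.8 and 131 CPM in old hearts, against 15.8, 15.9 and 17.6 CPM in young hearts, with a log2 fold change of 2.28 ± 0.35 (edgeR adjusted p = 0.00488).

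Oas2 carries a pair of synthetase units and makes longer oligoadenylates. It had 131, 264 and 461 CPM in old hearts, against 30.1, 35.1 and 33.2 CPM in young hearts. The lowest old heart was more than 3 times the highest young one. The mean was 285 ± 166 CPM in old hearts and 32.8 ± 2.54 CPM in young hearts, an 8.69-fold difference with an approximate 95% interval of 5.15 to 14.7 (edgeR adjusted p = 0.00235).

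Oas3, the largest of the family, has several synthetase units in a row and in human cell lines is the main source of active oligoadenylates. Its counts were 80, 50 and 189 in old hearts, against 2, 4 and 6 in young hearts. Young hearts were close to the limit of detection, which sets the precision of the ratio. In CPM these were 4.9, 3.55 and 14 in old hearts and 0.137, 0.271 and 0.386 in young hearts, with a log2 fold change of 4.76 ± 0.65 (edgeR adjusted p = 0.00324). Oas3 passed the filter on low counts through the old hearts alone, so its entry into the test depended on its high group. With no filter on low counts its log2 fold change was 4.75 (edgeR adjusted p = 1.69e-08). Its fitted change was the largest of the 8 and ranked 16 among all genes tested. On log2(FPKM + 1), however, it was 1.09, the next to smallest, against 2.78 for Oas2. The group totals of 319 counts in old hearts and 12 in young hearts gave a ratio of 27.2, with an exact binomial 95% interval of 15.3 to 53.1 that covers counting error only.

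Oas1b and Oas1c start next to each other on opposite strands. Oas1b is listed as a polymorphic pseudogene in GENCODE, since a stop codon truncates it in C57BL/6 and most laboratory strains; the full-length gene of wild-derived mice protects against flaviviruses. It had 15.1, 26.7 and 55.3 CPM in old hearts, against 5.91, 6.44 and 8.43 CPM in young hearts. Its log2 fold change was 2.22 ± 0.41 (edgeR adjusted p = 0.00974), a value between those of Oas1c and Oas1a; it missed the threshold without young heart 1 (0.0565) or young heart 2 (0.0527). Oas1c had 4.53, 4.96 and 5.27 CPM in old hearts, against 3.02, 2.44 and 3.48 CPM in young hearts. Its counts in old hearts 1 to 3 were 74, 70 and 71, so the order of its CPM there comes from library scaling. The groups did not overlap, and the old hearts spread over a 1.16-fold range, against 2.64-fold to 3.96-fold for the other 7 genes. Its log2 fold change was 0.72 ± 0.23, a fold of 1.65 with an approximate 95% interval of 1.2 to 2.26 (edgeR adjusted p = 0.0662), and it passed without old heart 1 (0.0359). An antisense model, Gm43069, overlaps the annotated span of Oas1c by 5430 bases. Opposite-strand models also overlap the spans of Oas2 (Gm43068, 1273 bases) and Oasl1 (Gm13822, 38 bases). No source used here gives the strand setting of the counting.

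The synthetase-like genes carry ubiquitin-like repeats at their end. Oasl1 has no synthetase activity and in mice holds back translation of the Irf7 mRNA, whereas mouse Oasl2 keeps the activity. Oasl1 had 10.4, 10.8 and 37.9 CPM in old hearts, against 3.57, 3.73 and 3.8 CPM in young hearts. Old hearts 1 and 2 were alike and old heart 3 stood above them. The mean was 19.7 ± 15.8 CPM in old hearts and 3.7 ± 0.115 CPM in young hearts, with a log2 fold change of 2.41 ± 0.48 (edgeR adjusted p = 0.0129). It missed the threshold when any 1 young heart was left out, with adjusted p of 0.0641 without young heart 1, 0.0612 without young heart 2 and 0.0563 without young heart 3. Oasl2 had 77.7, 75.3 and 199 CPM in old hearts, against 17.9, 18.9 and 21 CPM in young hearts, the same pattern at a higher level. Its log2 fold change was 2.61 ± 0.36 (edgeR adjusted p = 0.00319).

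Without old heart 3, the same 7 genes passed edgeR's test as higher, and their log2 fold changes were 1.99 for Oas1a, 1.59 for Oas1b, 2.42 for Oas1g, 2.59 for Oas2, 3.94 for Oas3, 1.51 for Oasl1 and 1.99 for Oasl2. Oas1c had 0.67 without it, with an adjusted p of 0.169. Old heart 3 was highest of the old hearts for 8 of 8 Oas genes, for 26.4% of all genes tested and for 43.2% of genes that passed as higher. For Oas1c that place came from library scaling, with counts of 74, 70 and 71 in old hearts 1 to 3.

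Marker sums of some other cell types differed between the ages too, while the fibroblast sums overlapped. The leukocyte markers summed to 604, 416 and 404 CPM in old hearts 1 to 3, against 275 to 331 CPM in young hearts. Of the 11 tested, 5 passed as higher and none as lower, where 8.72% of all genes tested passed as higher and 6.36% as lower. Lyz2 made up most of the difference among the old hearts, with 345, 179 and 145 CPM in old hearts 1 to 3, against 146, 188 and 170 CPM in young hearts. Without it, a sum chosen after the values were seen, the other 12 leukocyte markers came to 258, 238 and 259 CPM in old hearts 1 to 3, against 130 to 145 CPM in young hearts. Old heart 1 was then level with old heart 3. Of the 5 that passed, C1qa, Fcgr1 and S100a8 were highest in old heart 3, Ptprc in old heart 2 and Itgam in old heart 1. Endothelial markers summed to 821 to 861 CPM in old hearts and 1203 to 1360 CPM in young hearts, with 3 of 6 lower, and fibroblast markers to 488 to 1147 CPM in old hearts and 767 to 1037 CPM in young hearts, with 1 of 6 lower. Of the cardiomyocyte markers summed above, 3 of 7 passed as lower (Myh6, Actc1 and Pln). Myh6, the most abundant of the 7, had 13464 ± 1616 CPM in old hearts and 22616 ± 1821 CPM in young hearts. Tnnt2 and Tnni3 went the other way without passing, with log2 fold changes of 0.20 and 0.15. Tnnt2 was higher in every old heart than in any young one. No marker was at 0 in all libraries, and the part of cell composition in the Oas values was not tested.

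Levels between genes were compared per length, in the fragment counts scaled to length and depth (FPKM) that the authors deposited. The 8 genes together had 71.1, 112 and 226 FPKM in old hearts, against 19.7, 21.2 and 21.9 FPKM in young hearts. Oas2 and then Oasl2 led in both groups: Oas2 averaged 61.4 ± 35.8 FPKM in old hearts and 7.07 ± 0.544 FPKM in young hearts, and Oasl2 averaged 28.9 ± 17.5 FPKM in old hearts and 4.76 ± 0.376 FPKM in young hearts. In old hearts the order of means went on with Oas1b, Oas1a, Oasl1, Oas1g, Oas1c and Oas3, and only Oas1g and Oas1c, of the neighbours in that order, had old libraries that did not overlap. In young hearts the order was Oas1b, Oas1a, Oasl1, Oas1c, Oas1g and Oas3 after the first pair, and only Oasl1 and Oas1c overlapped among neighbours. By mean FPKM, Oas2 stood above 94.6% of the genes in the deposited FPKM table in old hearts and above 61.6% in young hearts.

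The make-up of the summed FPKM differed in part between the ages. Oas2 made up 44.8 ± 6.02% in old hearts and 33.9 ± 1.8% in young hearts (SD, n = 3 each). Oas1c made up 1.74 ± 0.794% in old hearts and 5.69 ± 0.933% in young hearts, Oas1b 11.1 ± 0.907% in old hearts and 15.9 ± 2.22% in young hearts, and Oas3 0.99 ± 0.355% in old hearts and 0.229 ± 0.097% in young hearts. The share of Oasl1 was 5.01 ± 1.32% in old hearts and 6.52 ± 0.177% in young hearts. None of these 5 shares overlapped between the ages, while those of Oas1a, Oas1g and Oasl2 did. For Oasl1 the gap was narrow, with an old maximum of 6.15% and a young minimum of 6.35%. The shares of a library add up to its whole, so a wider Oas2 share narrows the rest, and the 5 are not separate results. No rate for other gene families was taken. In CPM, gene by gene, all 3 old libraries lay above all 3 young ones for 18.8% of genes tested and below for 18.4%. The share of Oasl2 was 21.7 ± 4.96% in old hearts and 22.8 ± 0.806% in young hearts.

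**Figure D3:**
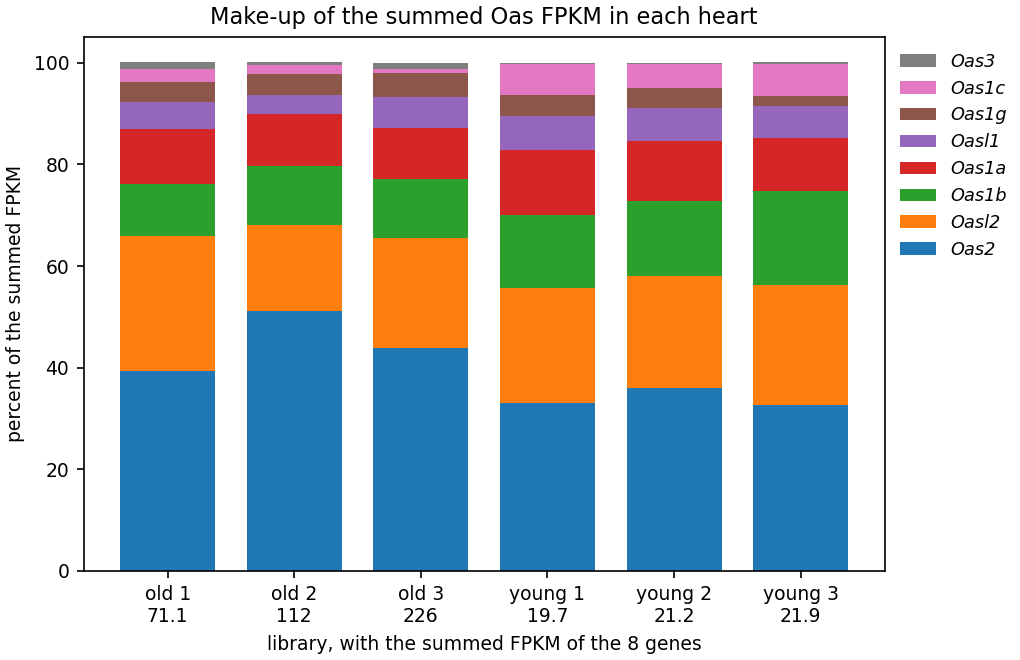
Share of each Oas gene in the summed FPKM of the 8 genes, in percent, for each of the 3 old and 3 young hearts, with the summed FPKM under each bar. The Oas2 share (blue, 39.3% to 51.2% in old hearts and 32.6% to 35.9% in young hearts) is wider and the Oas1c share (pink) narrower in every old heart.

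Ratios between Oas genes were also taken from the counts inside each library, which do not depend on scaling. There are 28 pairs of the 8 genes, and pairs that share a gene are not independent. With 3 hearts against 3, the exact two-sided permutation test cannot give a p below 0.1 (0.156 after adjustment over the 28 pairs), so none could pass the threshold. For the divergent neighbours, the log2 ratio of Oas1b to Oas1c was 1.73, 2.42 and 3.38 in old hearts, against 0.96, 1.39 and 1.27 in young hearts, a difference of 1.30. The ratio of Oas1a to Oas1b was 0.02, -0.23 and -0.32 in old hearts, against -0.27, -0.38 and -0.92 in young hearts, and it overlapped.

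The remaining Oas1 copies were at or near the floor. Oas1d had no counts in any library, where a count of 0 allows up to 0.0338 CPM over all 6 libraries (3 counts of their total). Oas1e had 1 count and Oas1f 3 counts, all in old heart 1. Oas1h had 4, 3 and 5 counts in old hearts, against 0, 1 and 2 counts in young hearts. None of the 4 had enough counts to be tested.

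Other genes of oligoadenylate turnover and action gave no call: 0 of 4 passed edgeR's test in either direction, and their median log2 fold change was -0.12. Across all genes tested 15.1% passed in either direction, so 0 of 4 does not set these genes apart. Abce1, a ribosome recycling factor, had a log2 fold change of -0.03 ± 0.15, with a sign that turned without old heart 2 (0.07) or old heart 3 (0.01). Among the enzymes that can break the oligoadenylates down, Pde12 had -0.21 ± 0.21 and Enpp1 -0.21 ± 0.23. Akap7, which in mice also degrades them, had 27.8, 44.9 and 33 CPM in old hearts, against 26.8, 22.5 and 24.2 CPM in young hearts, and its log2 fold change of 0.52 ± 0.18 missed the threshold (edgeR adjusted p = 0.0822), which it passed without old heart 1 (0.00556).

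**Figure D4:**
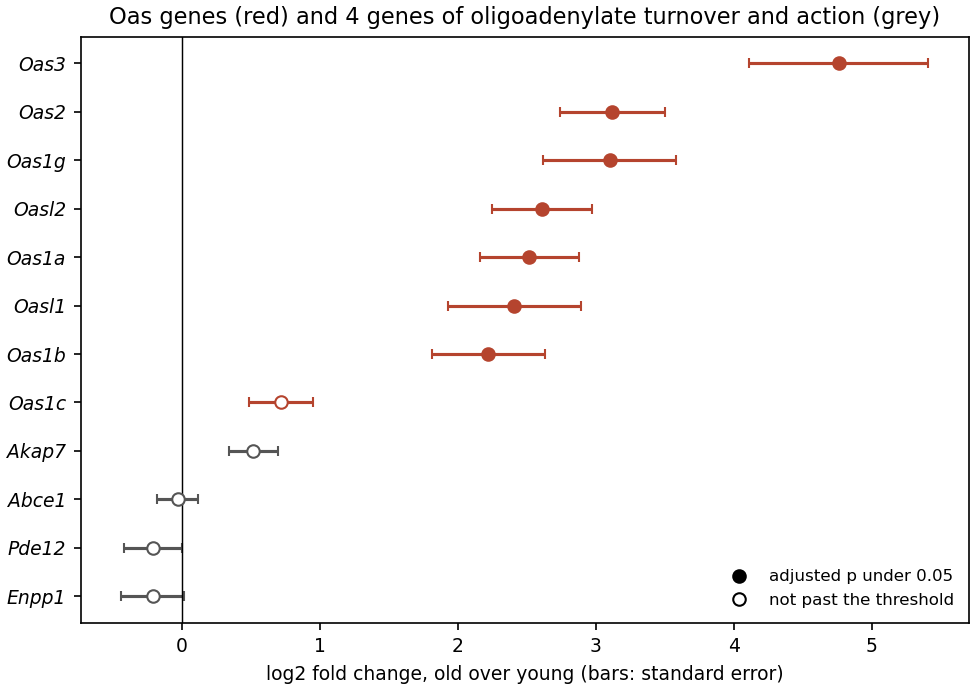
Log2 fold change, old over young, with standard error, for the 8 Oas genes (red) and 4 genes of oligoadenylate turnover and action (grey); filled points passed edgeR's test at an adjusted p under 0.05. The 7 filled points are all Oas genes, from 2.22 (Oas1b) to 4.76 (Oas3), and the grey points lie between -0.21 and 0.52.

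Other genes of double-stranded RNA and nucleic acid sensing, adaptors and Adar included, were higher in old hearts in most cases. Of 10 tested, 6 passed as higher and 1 as lower, with a median of 1.36 on the log2 scale. The shares of all genes tested were 8.72% higher and 6.36% lower. Zbp1, a sensor of left-handed nucleic acid helices, had 22.3, 12.8 and 40.8 CPM in old hearts, against 1.03, 1.7 and 1.87 CPM in young hearts, with a log2 fold change of 4.03 ± 0.44 (edgeR adjusted p = 0.00152). Adar, which edits adenosines in double-stranded RNA, had a log2 fold change of 1.66 ± 0.25 (0.00466). Dhx58, which encodes the RIG-I relative LGP2, had 1.96 ± 0.31 (0.00556), and Eif2ak2, which encodes the kinase PKR, had 1.44 ± 0.28 (0.0117). Eif2ak2 missed the threshold when any 1 young heart was left out (adjusted p 0.0633, 0.0527 and 0.0529). The lower gene, named after its value was seen, was Mavs, the mitochondrial adaptor of RIG-I and MDA5, at 30.5 ± 3.04 CPM in old hearts and 43.4 ± 1.92 CPM in young hearts (edgeR adjusted p = 0.0296). Mavs passed without old heart 1 but missed the threshold without any other 1 heart, with adjusted p of 0.0616 to 0.126.

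Of 11 genes of interferon signalling to the Oas promoters, 5 passed as higher and none as lower. Their median was 0.54 on the log2 scale. Among all genes tested, 8.72% passed as higher and 6.36% as lower. Irf7, which amplifies type I interferon production, had 206, 279 and 482 CPM in old hearts, against 30.9, 32.6 and 30.9 CPM in young hearts, with a log2 fold change of 3.36 ± 0.29 (edgeR adjusted p = 0.000886). The order of the old hearts was that of Oas1a, Oas1b, Oas1c, Oas1g, Oas2 and Oasl1, but not of Oas3 and Oasl2. For Oas1c and Oasl1 it came from library scaling and is not the order of their counts. The same order held for 14.6% of all genes tested and for 30% of genes that passed as higher. Of the complex that binds the motif, Stat2 rose by 2.43 ± 0.32 on the log2 scale (0.00297) and Irf9 by 1.63 ± 0.22 (0.00296). Usp18, described with the nearest profiles, rose by 2.44 ± 0.38 (0.00506). The 6 that missed the threshold were the receptor genes Ifnar1 and Ifnar2, the kinase genes Jak1 and Tyk2, and Irf1 and Socs1.

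Genes around the Oas loci passed the test about as often as genes overall. Of 21 tested genes within 250 kb of an Oas gene, 1 passed as higher and 2 as lower, where 15.1% of all genes tested passed in either direction, and the median log2 fold change was 0.07. Acads, a mitochondrial enzyme of fatty acid oxidation, had 131, 120 and 101 CPM in old hearts, against 215, 168 and 183 CPM in young hearts (log2 fold change -0.68 ± 0.15, edgeR adjusted p = 0.0192). Ankrd13a, an ankyrin repeat gene, had -0.51 ± 0.12 (0.0225), and Cabp1, a calcium-binding protein gene, had 1.15 ± 0.28 (0.0268). Slc8b1, the mitochondrial sodium-calcium exchanger gene, had 0.58 ± 0.18 and missed the threshold (0.0582), which it passed without old heart 1 (0.00481), under DESeq2 (0.042) and with no filter on low counts (0.0356). Acads, Ankrd13a and Cabp1 each missed it without young heart 1, 2 or 3 and without old heart 3, with adjusted p of 0.0584 to 0.115, and Cabp1 also without old heart 2 (0.0774). Cabp1 also missed it on the FPKM scales (0.0636 and 0.0619).

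The genes most like the mean Oas profile over the 6 libraries, by the root mean square distance of centred log2 CPM, were Usp18 at 0.11, Gbp3 at 0.14, Ddx60 at 0.16, Bst2 at 0.17 and Ifi47 at 0.18. The 6 libraries hold only 2 groups, so any gene with a like age difference comes near. Usp18, a protease that removes ISG15 and damps interferon receptor signalling, had 23.4, 28.9 and 70.7 CPM in old hearts, against 7.28, 7.05 and 8.18 CPM in young hearts. Old heart 3 was highest for each of the 5, which were chosen by nearness to a mean that is itself highest there. Among the Oas genes themselves, Oas1a and Oasl2 lay nearest to that mean at 0.12, and Oas3 at 0.88 and Oas1c at 0.96 lay farthest.

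**Figure D5:**
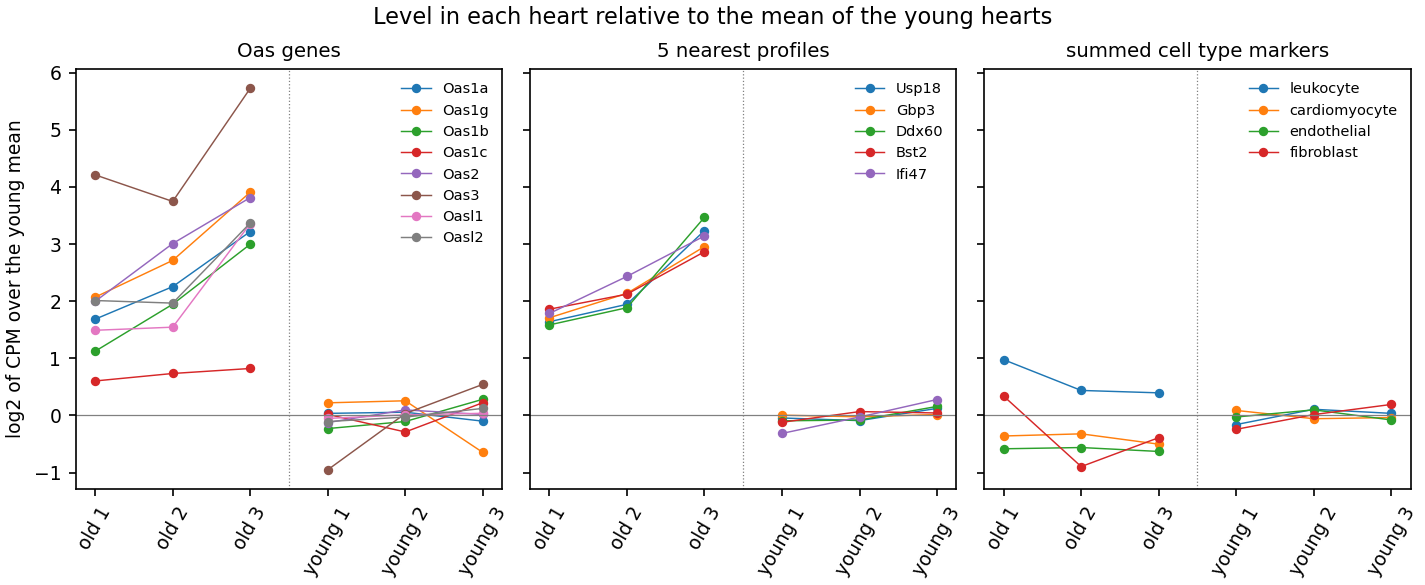
Log2 of CPM over the young mean in each of the 3 old and 3 young hearts for the 8 Oas genes, the 5 genes nearest to their mean profile, and the summed markers of 4 cell types; lines join the hearts of 1 group to help follow a gene and show no order in time. The 8 Oas genes are highest in old heart 3, and so are the 5 nearest genes, which were chosen by likeness to the Oas mean. The leukocyte sum is highest in old heart 1, where Lyz2 gives 345 of its 604 CPM.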

How the data were processed

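Total RNA of 6 hearts was sequenced by Novogene; per the submitters' processing notes HISAT2, Subread and featureCounts were used with GRCm38.p6, and no source used here gives their versions or strand setting. The authors deposited raw counts for 44200 gene models and an FPKM table of 13170 genes. The 571 models with no gene name (0.295% to 0.368% of counts) were left out. Counts were filtered with filterByExpr, scaled by TMM and tested with edgeR 4.0.16 in R 4.3.3 (glmQLFit, glmQLFTest), with Benjamini-Hochberg adjustment over 14413 genes at 0.05; the biological coefficient of variation was 0.187. The SE of a log2 fold change is its size over the square root of the test's F. The approximate 95% interval of a fold comes from that SE and a normal quantile. It is therefore narrower than the quasi-likelihood test behind the p would give. FPKM values, relative to gene length and depth by the authors, served for levels and, on a log2 scale, as an alternative with limma 3.58.1; DESeq2 1.42.0 was another. The script was tested on simulated data. Samples were grouped by the age label.

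The Oas genes, gene lists and tests were chosen with earlier results of these data known. Named genes were all 8 Oas genes, the other Oas1 copies, 4 genes of oligoadenylate turnover and action, and the 5 nearest profiles. Also named were the 4 smallest p of nucleic acid sensing, of interferon signalling and of the neighbours within 250 kb. Cgas and Sting1 were counted under the older symbols Mb21d1 and Tmem173. Of the leukocyte markers, 13 of 14 are used here. Some genes of these pathways are not reported here.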

Additional observations from a re-analysis of the deposited data

How the results depend on the processing

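The number of Oas genes that passed was 7 in each of the 10 settings that kept all libraries (other normalizations, filters, DESeq2, voom, robust fit, FPKM scales and the replicate block) and 5 to 8 with 1 library left out. Over all genes, 1615 to 2857 passed in settings with all libraries and 539 to 5570 with 1 library left out: 539 without young heart 1, 540 without young heart 2, 619 without young heart 3, 5570 without old heart 1 and 919 without old heart 3, against 2174 with all. The cause was not tested. Abce1 changed sign without old heart 2 (0.07) and old heart 3 (0.01), and ran over -0.18 to 0.07 with 1 library left out. Of 132 Oas values under alternatives, 126 kept direction and side of the threshold, 5 lost it and 1 gained it. The log2 difference of Oas3 was 1.09 on log2(FPKM + 1) and 3.09 on log2(FPKM + 0.1), where the pseudocount is above its young level. Other values that shrank by over 1.5-fold on log2(FPKM + 1) include Oas1g (1.90), Oasl1 (1.59) and Zbp1 (2.36). With Oas1a to Oas1h summed there is no count of Oas genes, since 4 of them become 1 feature. Replicate numbers did not pair the samples (correlations of same-numbered old and young hearts -0.087, -0.07 and 0.033); with the replicate block 1774 genes and 7 Oas genes passed, while Ankrd13a (adjusted p 0.0507) and Mavs (0.0506) missed the threshold. Depth limits Oas3 in young hearts and the untested Oas1 copies.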

Other observations

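Genes whose RefSeq start-site window holds the interferon-response motif were counted in the same edgeR fit, as a description with no test. The longer form, GAAANNGAAANNGAAA, occurred for 36 genes, 27 of which are in the count table. Of the 16 tested after leaving out the Oas genes, 9 passed as higher in old hearts and none as lower; their median was 0.86 on the log2 scale. They included Bst2 and Gbp3, which also have Oas-like profiles, and Socs1, a feedback inhibitor of the receptor kinases, which missed the threshold. Of the 385 tested with the shorter GAAANNGAAA, Oas genes left out, 18.2% passed as higher and 12 genes as lower, with a median of 0.11. Among all 10219 tested genes with a window, 8.6% passed as higher.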
